A study of Mus musculus with 4 samples.

Results

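The 46 genes described here belong to the Wnt signalling pathway. They were chosen by name from the 22138 genes of the table, and each name matched 1 row. They comprise 12 Wnt ligands, 2 genes of ligand secretion, 12 receptors and co-receptors, 8 cytoplasmic transducers, 4 TCF/LEF transcription factors and 8 antagonists or feedback genes. RNA was sequenced from TT2, a female embryonic stem cell line of the mouse (strain C57BL/6xCBA), grown in serum with LIF and no feeder cells. The cells received control siRNA (n = 2 libraries) or siRNA against Hnrnpk (n = 2 libraries), at 100 nM and again at 50 nM after 24 hours, and were collected about 72 hours after the second dose. All 4 libraries therefore share the line, the medium and a double transfection, and the depletion was transient. The labels call the replicates biological but do not say what separated them, so p-values rest on the spread between these libraries, largely pooled over genes of similar level. The labels give neither the number nor the sequence of the siRNAs.

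Wnt ligands are secreted glycoproteins that need a lipid, attached by the acyltransferase Porcn, and a carrier, Wls, to leave the cell. They bind Frizzled receptors together with the co-receptors Lrp5 and Lrp6. Through Dishevelled proteins this stops the destruction complex of Axin, Apc and Gsk3 from marking beta-catenin (Ctnnb1) for degradation, and beta-catenin then joins TCF/LEF factors on target genes. In mouse embryonic stem cells Tcf7l1 is known as a repressor of pluripotency genes that beta-catenin counteracts, and Wnt signalling is known to favour self-renewal.

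The start sites of 3 members differ in base composition and in matches to the TCF/LEF consensus. RefSeq windows on GRCm38.p6, from 250 bases before to 50 bases after the annotated start, were available for 30 of the 46 members, 40 windows in all. Wnt6 and Dkk1 are shown because they rose furthest among ligands and antagonists, and Sp5 because it is a textbook beta-catenin target. Capitals mark CTTTGAT or CTTTGAA, letters of the TCF/LEF consensus, searched on both strands. The motifs differ only in their last base, so 1 site cannot match both.
Wnt6 (chr1:74771642-74771941, plus strand): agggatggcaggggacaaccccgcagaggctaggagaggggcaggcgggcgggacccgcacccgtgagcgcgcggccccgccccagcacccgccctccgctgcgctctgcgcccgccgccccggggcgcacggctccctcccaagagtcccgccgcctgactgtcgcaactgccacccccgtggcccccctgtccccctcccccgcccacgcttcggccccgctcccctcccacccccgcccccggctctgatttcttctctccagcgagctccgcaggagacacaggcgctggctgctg
Dkk1 (chr19:30549447-30549746, minus strand): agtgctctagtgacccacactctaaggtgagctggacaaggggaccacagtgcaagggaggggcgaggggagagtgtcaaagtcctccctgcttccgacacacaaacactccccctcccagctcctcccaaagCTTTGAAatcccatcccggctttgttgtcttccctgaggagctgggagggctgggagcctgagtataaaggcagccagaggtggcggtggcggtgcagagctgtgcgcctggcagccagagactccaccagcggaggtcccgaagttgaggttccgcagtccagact
Sp5 (chr2:70474673-70474972, plus strand): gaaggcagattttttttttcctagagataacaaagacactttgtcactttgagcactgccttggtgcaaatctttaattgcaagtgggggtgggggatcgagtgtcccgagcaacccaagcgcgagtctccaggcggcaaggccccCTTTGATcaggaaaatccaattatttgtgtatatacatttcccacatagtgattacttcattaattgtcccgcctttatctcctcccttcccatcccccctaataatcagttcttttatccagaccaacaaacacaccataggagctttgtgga
The Dkk1 match begins at position -117 and the Sp5 match at -104 relative to the annotated start. The Wnt6 window held 76.7% G and C and 31 CpG dinucleotides, with no match. The Dkk1 window held 60.7% G and C and 9 CpG, and the Sp5 window 45.0% and 6. A match was found in 5 of the 40 member windows (12.5%), those of Dkk1, Sp5, Wnt5b, Wnt11 and Gsk3a, and in 8.65% of all 32851 windows of that length. These genes rose, fell or were not called, as described below, and a match is a string of letters, not a measured binding site. The median window held 67.0% G and C among members and 52.7% among all genes.

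Hnrnpk itself stood at 236 and 226 RPKM with control siRNA and 68 and 70.5 RPKM with Hnrnpk siRNA. It fell by 1.73 ± 0.0629 on the log2 scale (± SE; limma adjusted p = 6.59e-08), a ratio of 0.30. Values were RPKM, reads scaled to transcript length and library size, so levels can be compared between genes. Changes were fitted as log2(RPKM + 0.5) with limma over the 12486 genes whose mean reached 0.5 RPKM. A gene was called where its p, adjusted over all of these by Benjamini-Hochberg, was under 0.05. The relative depth of the libraries was 1, 0.982, 0.891 and 0.882, in the order control 1 and 2 and Hnrnpk siRNA 1 and 2. A gene of 1 kilobase at 0.5 RPKM corresponded to between 54.7 and 62.1 reads or read pairs. Replicates correlated at r = 0.997 and 0.999 across genes, which are not independent replicates, against 0.955 to 0.960 between groups.

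Pathway genes moved in both directions. Of the 46 members 40 were tested: 15 were called higher (37.5%), 17 lower (42.5%) and 8 were not called. Over all genes tested 32.2% were called higher, 35.0% lower and 67.2% either way, so the share of members called, 80.0%, is read against a background that is itself high. By at least 1 on the log2(RPKM + 0.5) scale, 6 called members rose (15.0%, against 4.0% of all genes) and 2 fell (5.0%, against 4.52%). Of the 6, Wnt3, Wnt10a and Dkk1 are among those named below as passing the filter only through their higher group. These counts leave out Wnt8a, Wnt9a and Wnt5b, whose ratios of mean RPKM were 2.79, 2.01 and 0.295. The median size of the change was 0.55 among tested members and 0.32 among all tested genes, and the signed medians were -0.090 and -0.015. Both Hnrnpk siRNA libraries lay outside the range of the control libraries in 37 of the 40 tested members, against 84.7% of all genes. The 6 untested members were Wnt3a, Wnt4, Wnt5a, Wnt7a, Fzd4 and Rnf43. A further 5 tested members (Wnt3, Wnt8a, Wnt10a, Wnt11 and Dkk1) had control means below 0.5 RPKM, and 2 (Wnt5b and Fzd1) had Hnrnpk siRNA means below it, so they passed the filter only through their higher group and had to differ. With no filter, 16 of all 46 members were called higher and 17 lower, where 25.3% and 26.0% of all genes were. With a mean of at least 1 RPKM required, 31 members were tested, 9 of them higher and 15 lower. The plot of change against level sets the members among all genes.

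**Figure D1:**
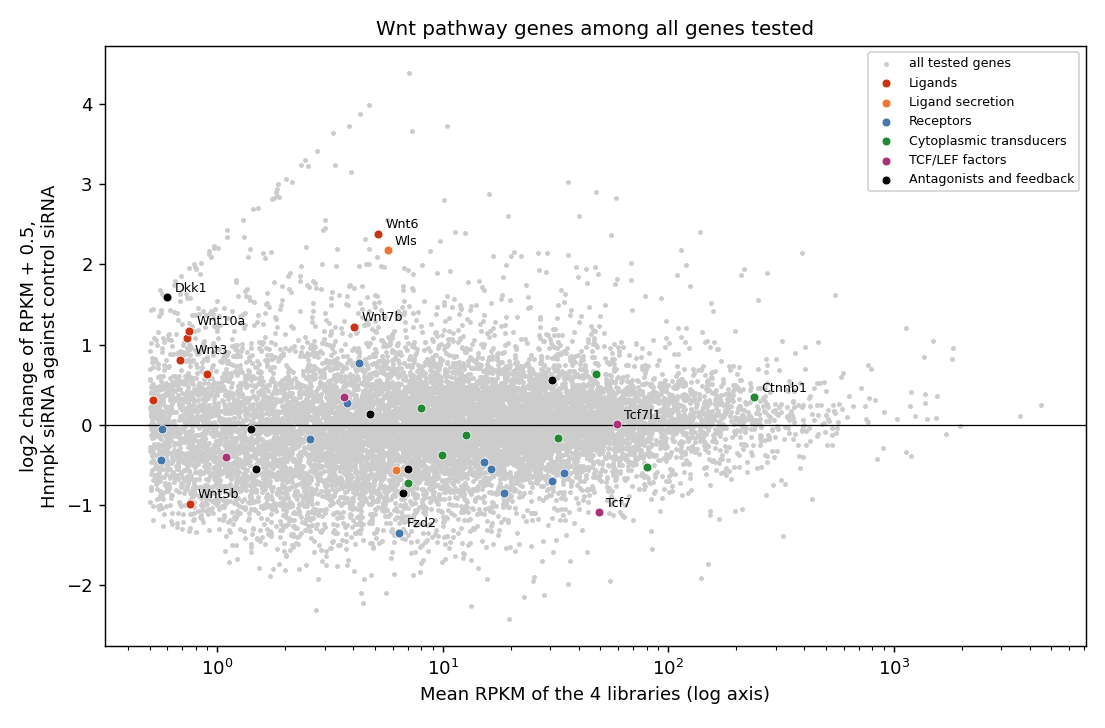
Change of each tested gene on the log2(RPKM + 0.5) scale (vertical) against its mean RPKM over the 4 libraries (horizontal, log axis), with 12486 tested genes in grey and the 40 tested Wnt pathway members coloured by class. Ligands lie at low levels and mostly above 0, receptors mostly below it, and Wnt6 (2.38) and Wls (2.17) stand highest among members.

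Of the 8 ligands tested, all low in the control libraries, 7 were called higher and 1 lower, where 32.2% of all genes were called higher. Wnt3, Wnt8a, Wnt10a and Wnt11 passed the filter only through their Hnrnpk siRNA libraries, so the filter alone favoured a rise in these 4. With no filter on level, 9 of all 12 were called higher and 1 lower (Wnt5b), where 25.3% of all genes were called higher. Their summed level went from 7.33 ± 0.236 to 21.7 ± 0.138 RPKM (SD, n = 2 each), a ratio of 2.96. Wnt6, a ligand made by many epithelia, stood at 1.18 and 1.49 RPKM with control siRNA and 8.95 and 9.08 RPKM with Hnrnpk siRNA. It rose by 2.38 ± 0.0971 on the log2 scale (± SE; limma adjusted p = 1.18e-07), a ratio of 6.76, and alone made up 53.6% of the rise of the ligand sum. The gene (ENSMUSG00000033227, chromosome 1, 74771892 to 74785322, plus strand, GRCm38) is protein coding, as are the other members.

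Wnt7b, a ligand needed for lung and placental development and the most abundant in the control libraries, was measured at 2.32 and 2.13 RPKM with control siRNA and 5.86 and 5.88 RPKM with Hnrnpk siRNA. It rose by 1.22 ± 0.0832 on the log2 scale (± SE; limma adjusted p = 1.98e-06). Both Hnrnpk siRNA values were nearly the same and lay above both control values. Wnt10a, known from tooth and skin development, had 0.218 and 0.317 RPKM with control siRNA and 1.21 and 1.24 RPKM with Hnrnpk siRNA, and rose by 1.17 ± 0.104 on the log2 scale (± SE; limma adjusted p = 9.04e-06). Wnt3, which in the embryo is needed to form the primitive streak, had 0.236 and 0.345 RPKM with control siRNA and 1.16 and 1.19 RPKM with Hnrnpk siRNA, and rose by 1.09 ± 0.105 on the log2 scale (± SE; limma adjusted p = 1.61e-05). These ligands were at low levels in the control group and did not overlap between groups.

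Smaller rises were seen for Wnt8a and Wnt9a. Wnt8a, a ligand of the early posterior embryo, was at 0.269 and 0.449 RPKM with control siRNA and 0.987 and 1.02 RPKM with Hnrnpk siRNA, with a rise of 0.81 ± 0.117 on the log2 scale (± SE; limma adjusted p = 0.000206). Wnt9a, which acts in joint formation, was at 0.691 and 0.503 RPKM with control siRNA and 1.13 and 1.27 RPKM with Hnrnpk siRNA, with a rise of 0.63 ± 0.112 on the log2 scale (± SE; limma adjusted p = 0.000743). Wnt11, a ligand best known for signalling without beta-catenin, rose by 0.31 log2 units (0.40 and 0.424 against 0.66 and 0.595 RPKM; limma adjusted p = 0.0193). Wnt3a, the ligand most used to activate the pathway in culture, was below the filter, at 0.238 and 0.245 RPKM with control siRNA and 0.735 and 0.69 RPKM with Hnrnpk siRNA. Its libraries did not overlap, and with no filter it was called higher, with a log2 change of 0.71, limma adjusted p = 0.00106.

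Wnt5b, a ligand thought to act mostly without beta-catenin, ran against the other tested ligands. It stood at 1.17 and 1.17 RPKM with control siRNA and 0.376 and 0.315 RPKM with Hnrnpk siRNA. It fell by 0.98 ± 0.0968 on the log2 scale (± SE; limma adjusted p = 1.81e-05), and its share of the summed ligand RPKM went from 16.3% and 15.6% to 1.74% and 1.45%. Over the same libraries the share of Wnt6 went from 16.5% and 19.8% to 41.5% and 41.7%, while that of Wnt7b was 32.4% and 28.5% and then 27.2% and 27%. The most abundant ligand was Wnt7b in both control libraries and Wnt6 in both Hnrnpk siRNA libraries, as the bars of summed RPKM show. Wnt4, Wnt5a and Wnt7a stayed at or below 0.223 RPKM in every library and were not tested. Wnt4 overlapped between groups, and of the 3 only Wnt5a was called with no filter (0.12, limma adjusted p = 0.0204).

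**Figure D2:**
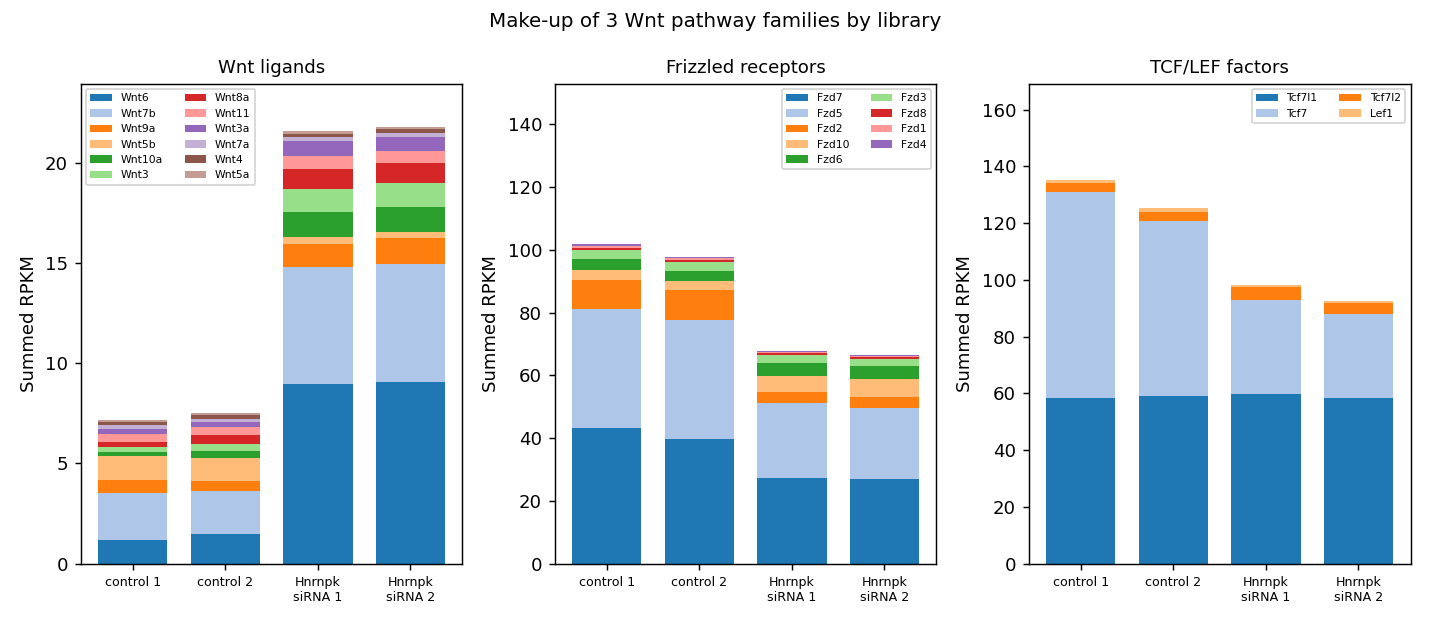
Summed RPKM of the 12 Wnt ligands, 9 Frizzled receptors and 4 TCF/LEF factors in each of the 4 libraries, each bar starting at 0 and divided by gene. The ligand sum is higher in both Hnrnpk siRNA libraries (21.6 and 21.8 RPKM), the Frizzled sum (67.8 and 66.4) and the TCF/LEF sum (98.2 and 92.7) are lower than in the control libraries.

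Wnt genes often lie in neighbouring pairs, which the choice of members did not use. Wnt6 and Wnt10a lie 6.19 kb apart on chromosome 1 (GRCm38, 74771892 to 74785322 and 74791516 to 74804179, both plus strand), and both rose. Wnt3a and Wnt9a lie 16.2 kb apart on chromosome 11 with opposite strands. Wnt9a rose and Wnt3a was not tested, though both of its Hnrnpk siRNA values were above both control values. In the remaining pairs the partners differed in level. Wnt3 rose, and Wnt9b, 24.3 kb away, was far less abundant and not tested. It stood at 0.00713 and 0.0136 RPKM with control siRNA and 0.026 and 0.0313 RPKM with Hnrnpk siRNA. Wnt10b stood at 0.00345 and 0.0141 RPKM with control siRNA and 0.102 and 0.127 RPKM with Hnrnpk siRNA, while its neighbour Wnt1 did not exceed 0.0115 RPKM.

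The 2 secretion genes moved apart. Wls, the carrier that takes Wnt proteins to the cell surface (ENSMUSG00000028173, chromosome 3, 159839672 to 159938664, plus strand), stood at 1.84 and 1.65 RPKM with control siRNA and 9.41 and 9.83 RPKM with Hnrnpk siRNA. It went from 1.74 ± 0.131 to 9.62 ± 0.30 RPKM (SD, n = 2 each), a ratio of 5.52, and rose by 2.17 ± 0.0842 on the log2 scale (± SE; limma adjusted p = 9.11e-08). Porcn, the acyltransferase, had 6.92 and 7.99 RPKM with control siRNA and 4.78 and 5.0 RPKM with Hnrnpk siRNA, and fell by 0.56 ± 0.0877 on the log2 scale (± SE; limma adjusted p = 0.000354). Porcn was above Wls in both control libraries and below it in both Hnrnpk siRNA libraries.

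Of the 11 receptors tested, 7 were called lower and 2 higher, where 35.0% of all genes were called lower and 32.2% higher. The summed Frizzled level went from 99.9 ± 2.92 to 67.1 ± 0.992 RPKM (SD, n = 2 each), a ratio of 0.671. Fzd7 and Fzd5, the most abundant Frizzleds in these cells, accounted for 43.1% and 45.1% of that difference. Fzd7 stood at 43.2 and 39.6 RPKM with control siRNA and 27.4 and 27 RPKM with Hnrnpk siRNA, and fell by 0.59 ± 0.0667 on the log2 scale (± SE; limma adjusted p = 4.06e-05). Fzd5 stood at 38 and 38.1 RPKM with control siRNA and 23.7 and 22.7 RPKM with Hnrnpk siRNA, and fell by 0.70 ± 0.0625 on the log2 scale (± SE; limma adjusted p = 9.65e-06). In both, the groups were clearly apart. Fzd2 showed the largest fall among members (ENSMUSG00000050288, chromosome 11, 102604396 to 102608058, plus strand). It had 9.21 and 9.62 RPKM with control siRNA and 3.39 and 3.41 RPKM with Hnrnpk siRNA, and fell by 1.35 ± 0.0764 on the log2 scale (± SE; limma adjusted p = 7.53e-07). By the ratio of mean RPKM the ligand Wnt5b fell further (0.295, against 0.361 for Fzd2).

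The co-receptors fell together. Lrp5 stood at 25.2 and 22.9 RPKM with control siRNA and 13.1 and 13.2 RPKM with Hnrnpk siRNA, and fell by 0.85 ± 0.0707 on the log2 scale (± SE; limma adjusted p = 6.67e-06). Lrp6 stood at 19.8 and 19.1 RPKM with control siRNA and 13.9 and 12.4 RPKM with Hnrnpk siRNA, and fell by 0.55 ± 0.0742 on the log2 scale (± SE; limma adjusted p = 0.000135). Lrp5 was above Lrp6 in both control libraries, whereas in Hnrnpk siRNA replicate 1 Lrp6 was the higher. Lgr4, a receptor for R-spondins, which strengthen Wnt signals, fell by 0.46 log2 units (18.6 and 16.9 against 12.7 and 12.7 RPKM; limma adjusted p = 0.000345).

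Fzd10 was the one Frizzled with a clear rise. It stood at 3.13 and 2.88 RPKM with control siRNA and 5.33 and 5.62 RPKM with Hnrnpk siRNA, rose by 0.77 ± 0.0841 on the log2 scale (± SE; limma adjusted p = 3.39e-05), and its share of the Frizzled sum went from 3.07% and 2.94% to 7.86% and 8.47%. Fzd6 rose by 0.27 log2 units (3.66 and 3.09 against 4.18 and 4.14 RPKM; limma adjusted p = 0.0282). The call was lost with no filter (limma adjusted p = 0.0883) and without control replicate 2 (0.16, limma adjusted p = 0.106), Hnrnpk siRNA replicate 1 (0.26, limma adjusted p = 0.138) or replicate 2 (0.27, limma adjusted p = 0.121). Fzd1 fell by 0.43 log2 units (0.841 and 0.608 against 0.432 and 0.376 RPKM; limma adjusted p = 0.00825), which was lost without Hnrnpk siRNA replicate 2 (-0.39, limma adjusted p = 0.0779). Fzd3 (2.67 and 2.81 against 2.45 and 2.32 RPKM) and Fzd8 (0.628 and 0.544 against 0.558 and 0.542 RPKM) were not called, though Fzd3 was called lower with GC trends removed (-0.27, limma adjusted p = 0.0114) and was at -0.077, limma adjusted p = 0.454 under quantile normalization. Fzd4, not tested, was at 0.66 and 0.568 RPKM with control siRNA and 0.261 and 0.234 RPKM with Hnrnpk siRNA, and was called lower with no filter (-0.57, limma adjusted p = 0.00247). The plot of levels shows these receptors beside the other classes.

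**Figure D3:**
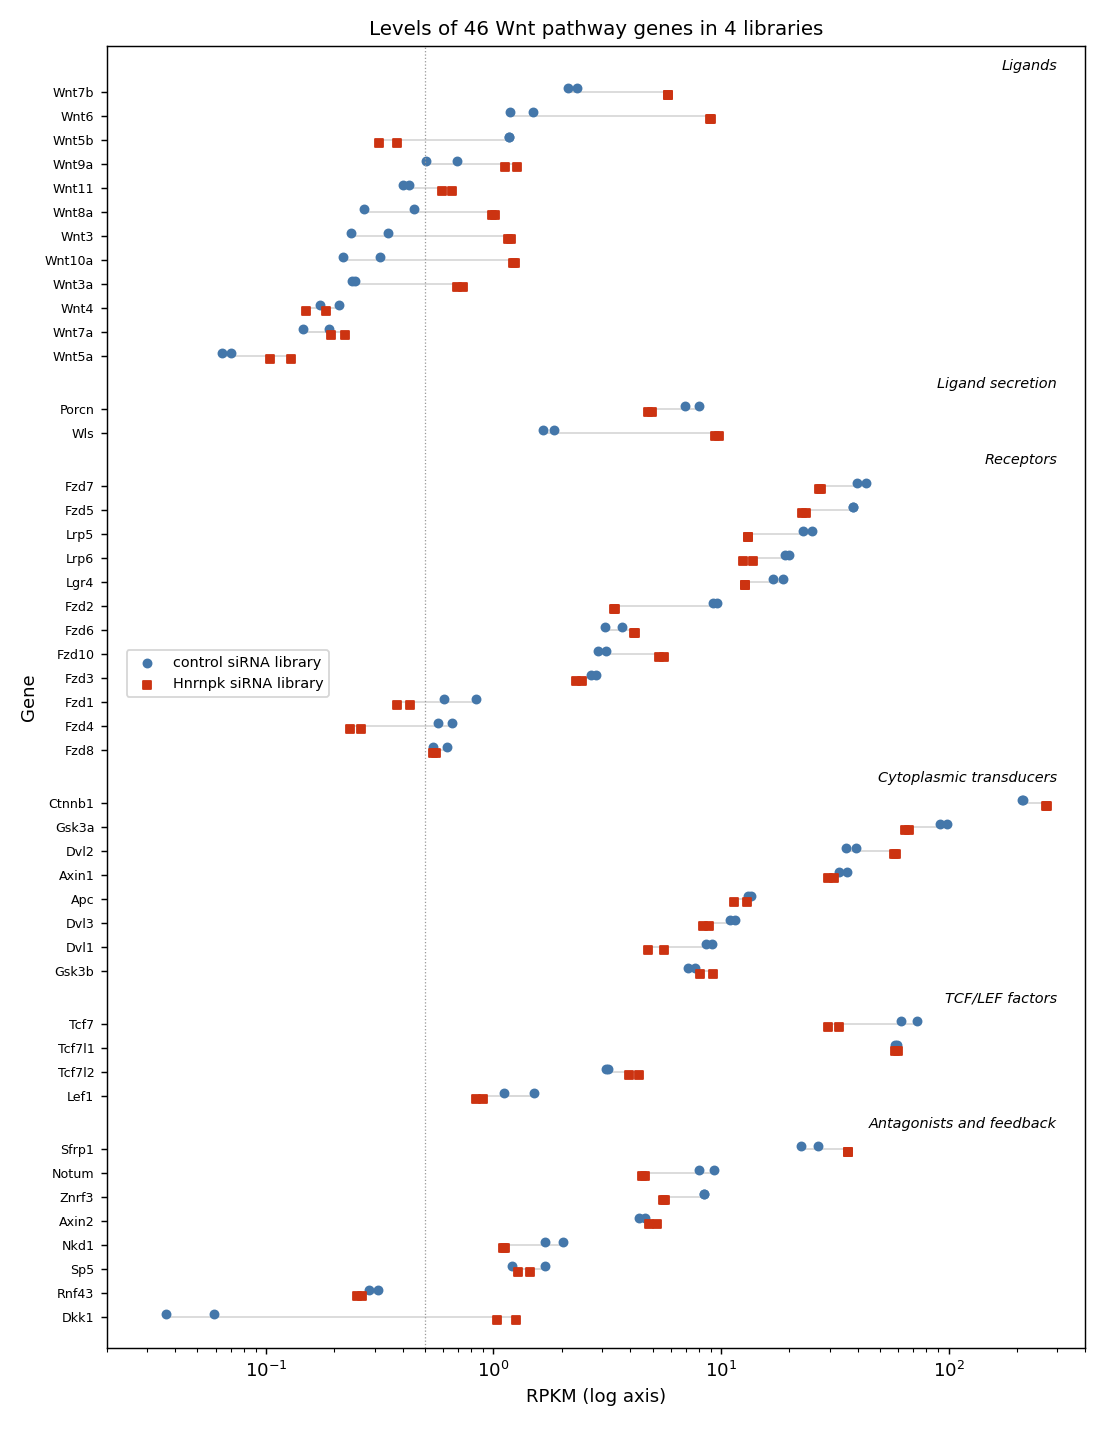
RPKM (log axis) of the 46 Wnt pathway genes in the 2 control (circles) and 2 Hnrnpk siRNA (squares) libraries, by class and ordered by control mean, with a dotted line at 0.5 RPKM. The groups do not overlap in 42 of the 46 genes, and overlap in Wnt4, Fzd8, Tcf7l1 and Sp5. They do not overlap in 84.7% of all tested genes, a share that does not cover the untested members among the 42.

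Among cytoplasmic transducers 2 of 8 rose and 3 fell, where 32.2% of all genes were called higher and 35.0% lower. Ctnnb1, which encodes beta-catenin and was the most abundant member (ENSMUSG00000006932, chromosome 9, 120929216 to 120960507, plus strand), stood at 214 and 209 RPKM with control siRNA and 270.1 and 267 RPKM with Hnrnpk siRNA. It went from 211 ± 3.0 to 269 ± 2.28 RPKM (SD, n = 2 each), a ratio of 1.27, and rose by 0.34 ± 0.0634 on the log2 scale (± SE; limma adjusted p = 0.000963). The group difference was larger than the spread within either group. Protein, which degradation largely controls, was not measured. Exons of Ctnnb1 overlap those of Ulk4 on the other strand over 14.6% of their length, and Ulk4 was at 0.991 to 1.12 RPKM.

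Dishevelled genes, which relay the signal from Frizzled, were divided. Dvl2 stood at 39.1 and 35.5 RPKM with control siRNA and 57.5 and 58.9 RPKM with Hnrnpk siRNA, and rose by 0.64 ± 0.0679 on the log2 scale (± SE; limma adjusted p = 2.96e-05). Dvl1 stood at 9.17 and 8.55 RPKM with control siRNA and 4.77 and 5.63 RPKM with Hnrnpk siRNA, and fell by 0.72 ± 0.0913 on the log2 scale (± SE; limma adjusted p = 9.15e-05). Dvl3 fell by 0.37 log2 units (11.5 and 11 against 8.83 and 8.34 RPKM; limma adjusted p = 0.00142). The share of Dvl2 in the summed Dishevelled RPKM went from 65.4% and 64.5% to 80.9% and 80.8%. Exons of Dvl2 overlap those of Acadvl on the other strand over 18.3% of their length, and without the strand of the reads the 2 cannot be told apart there. Acadvl was lower with Hnrnpk siRNA (22.8 and 20.4 against 16.3 and 19.1 RPKM; limma adjusted p = 0.0187).

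The kinase genes of the destruction complex differed too. Gsk3a stood at 98.1 and 91.9 RPKM with control siRNA and 64.3 and 67 RPKM with Hnrnpk siRNA, and fell by 0.53 ± 0.0645 on the log2 scale (± SE; limma adjusted p = 6.80e-05). Its exons overlap the antisense gene 9130221H12Rik over 28.3% of their length, and that gene was at 3.8 to 4.07 RPKM. Gsk3b stood at 7.65 and 7.14 RPKM with control siRNA and 9.18 and 8.05 RPKM with Hnrnpk siRNA. Its log2 difference was 0.20 ± 0.0851 (SE; adjusted p by limma, 0.0564), not called, but it was called without control replicate 1 (0.25, limma adjusted p = 0.0255) or Hnrnpk siRNA replicate 2 (0.29, limma adjusted p = 0.0466), and with the replicate block (limma adjusted p = 0.0312) and under median-ratio and quantile scaling (0.0477 and 0.0346). It was smaller without control replicate 2 (0.16, limma adjusted p = 0.141) or Hnrnpk siRNA replicate 1 (0.11, limma adjusted p = 0.418). The ratio of Gsk3a to Gsk3b was 12.8 and 12.9 with control siRNA and 7.01 and 8.32 with Hnrnpk siRNA.

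The scaffold genes Axin1 and Apc were not called. Axin1, on which the complex assembles, was at 35.6 and 33 RPKM with control siRNA and 29.4 and 31.5 RPKM with Hnrnpk siRNA. Its log2 difference of -0.17 ± 0.0689 (SE; adjusted p by limma, 0.0519) passed the threshold without control replicate 2 (-0.22, limma adjusted p = 0.0247), under quantile normalization (limma adjusted p = 0.0199) and with the replicate block (limma adjusted p = 0.0348). It was smaller with GC trends removed (-0.044, limma adjusted p = 0.518), without control replicate 1 (-0.12, limma adjusted p = 0.224) and without Hnrnpk siRNA replicate 1 (-0.12, limma adjusted p = 0.266). Apc, a tumour suppressor, was at 13.5 and 13.1 RPKM with control siRNA and 12.9 and 11.4 RPKM with Hnrnpk siRNA, a log2 difference of -0.13 ± 0.0788 (SE; adjusted p by limma, 0.184). That value was -0.21, limma adjusted p = 0.0919 without Hnrnpk siRNA replicate 1 and -0.036, limma adjusted p = 0.783 without replicate 2.

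The balance of the TCF/LEF factors shifted: Tcf7 fell and Tcf7l1 was not called. Tcf7, encoding TCF1 (ENSMUSG00000000782, chromosome 11, 52252371 to 52283014, minus strand), stood at 72.6 and 61.7 RPKM with control siRNA and 33.1 and 29.6 RPKM with Hnrnpk siRNA. It went from 67.2 ± 7.71 to 31.4 ± 2.5 RPKM (SD, n = 2 each), a ratio of 0.467, and fell by 1.08 ± 0.088 on the log2 scale (± SE; limma adjusted p = 5.60e-06). Tcf7l1, encoding TCF3, stood at 58.4 and 59.1 RPKM with control siRNA and 59.9 and 58.3 RPKM with Hnrnpk siRNA, a log2 difference of 0.0088 ± 0.0599 (SE; adjusted p by limma, 0.904). That value was -0.053 under quantile normalization, -0.0095 without Hnrnpk siRNA replicate 1, and 0.18 (limma adjusted p = 0.0296) with GC trends removed. Tcf7l1 held 43.2% and 47.1% of the summed TCF/LEF RPKM with control siRNA and 60.9% and 62.9% with Hnrnpk siRNA. The ratio of Tcf7 to Tcf7l1 was 1.24 and 1.05 with control siRNA and 0.553 and 0.507 with Hnrnpk siRNA.

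The other TCF/LEF genes were far less abundant. Tcf7l2 rose by 0.35 log2 units (3.18 and 3.13 against 4.38 and 3.92 RPKM; limma adjusted p = 0.00571), not called without Hnrnpk siRNA replicate 1 (0.27, limma adjusted p = 0.0986). Lef1, itself a target of the pathway in many tissues, was at 1.11 and 1.5 RPKM with control siRNA and 0.896 and 0.834 RPKM with Hnrnpk siRNA, and fell by 0.40 ± 0.117 on the log2 scale (± SE; limma adjusted p = 0.013). The call was lost with no filter (limma adjusted p = 0.0567) and without either Hnrnpk siRNA replicate (-0.43, limma adjusted p = 0.0504 without the first; -0.36, limma adjusted p = 0.0902 without the second). Without control replicate 2 the value was -0.24, limma adjusted p = 0.0342.

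Antagonists and feedback genes moved both ways, with 2 of 7 tested members higher and 3 lower. Over all genes tested 32.2% were called higher and 35.0% lower. Dkk1, which blocks Lrp5 and Lrp6 (ENSMUSG00000024868, chromosome 19, 30545863 to 30549665, minus strand), stood at 0.0365 and 0.0592 RPKM with control siRNA and 1.04 and 1.26 RPKM with Hnrnpk siRNA. It went from 0.0478 ± 0.016 to 1.15 ± 0.157 RPKM (SD, n = 2 each), a ratio of 24.1, and rose by 1.59 ± 0.107 on the log2 scale (± SE; limma adjusted p = 1.86e-06). Its control values rest on about 11 and 17.5 reads or read pairs, the fewest of any member, so the size of the ratio is loosely fixed, and on the scale with 0.5 RPKM added it is compressed. With an added 0.1 RPKM the rise was 3.08. Sfrp1, a soluble Frizzled-like inhibitor, stood at 26.7 and 22.4 RPKM with control siRNA and 36.2 and 36.1 RPKM with Hnrnpk siRNA, and rose by 0.56 ± 0.0836 on the log2 scale (± SE; limma adjusted p = 0.000271).

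Notum, Znrf3 and Nkd1, which limit the pathway at the ligand, at the receptor and at Dishevelled, fell. Notum, an esterase that strips the lipid from Wnt proteins, stood at 8.03 and 9.32 RPKM with control siRNA and 4.63 and 4.5 RPKM with Hnrnpk siRNA, and fell by 0.85 ± 0.0877 on the log2 scale (± SE; limma adjusted p = 2.34e-05). Antisense genes overlap 29.4% (Notumos) and 8.72% (Myadml2os) of its exonic length. These were not analysed here, nor were Gm38058 and Gm43352, which overlap 17.8% of the exons of Fzd5 and 13.7% of those of Lef1. Znrf3, a ubiquitin ligase that removes Frizzled from the surface, stood at 8.4 and 8.42 RPKM with control siRNA and 5.66 and 5.55 RPKM with Hnrnpk siRNA, and fell by 0.55 ± 0.0732 on the log2 scale (± SE; limma adjusted p = 0.000131). Nkd1, which binds Dishevelled, stood at 2.02 and 1.68 RPKM with control siRNA and 1.12 and 1.1 RPKM with Hnrnpk siRNA, and fell by 0.55 ± 0.101 on the log2 scale (± SE; limma adjusted p = 0.000972). The groups did not overlap in any of the 3. Rnf43, the relative of Znrf3, was not tested and stayed between 0.252 and 0.31 RPKM.

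Axin2 and Sp5, often used as reporters of beta-catenin activity, were not called. They do not stand for every gene of their class, where 2 of 7 tested were called higher and 3 lower. Lef1, named above as a target in many tissues, was also called lower. Axin2 stood at 4.63 and 4.37 RPKM with control siRNA and 5.22 and 4.8 RPKM with Hnrnpk siRNA, a log2 difference of 0.14 ± 0.083 (SE; adjusted p by limma, 0.163). It was called, upward, under quantile normalization (0.22, limma adjusted p = 0.0353) and with GC trends removed (0.27, limma adjusted p = 0.0158), and was smallest without Hnrnpk siRNA replicate 1 (0.085, limma adjusted p = 0.592), with limma adjusted p between 0.0158 and 0.592 across the 13 alternatives. Sp5 stood at 1.2 and 1.69 RPKM with control siRNA and 1.29 and 1.44 RPKM with Hnrnpk siRNA, a log2 difference of -0.054 ± 0.125 (SE; adjusted p by limma, 0.717), with the control libraries spanning both Hnrnpk siRNA libraries. Its sign turned between alternatives, and without control replicate 1 it was called lower (-0.24, limma adjusted p = 0.0412). A missed threshold does not show that either gene was level.

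**Figure D4:**
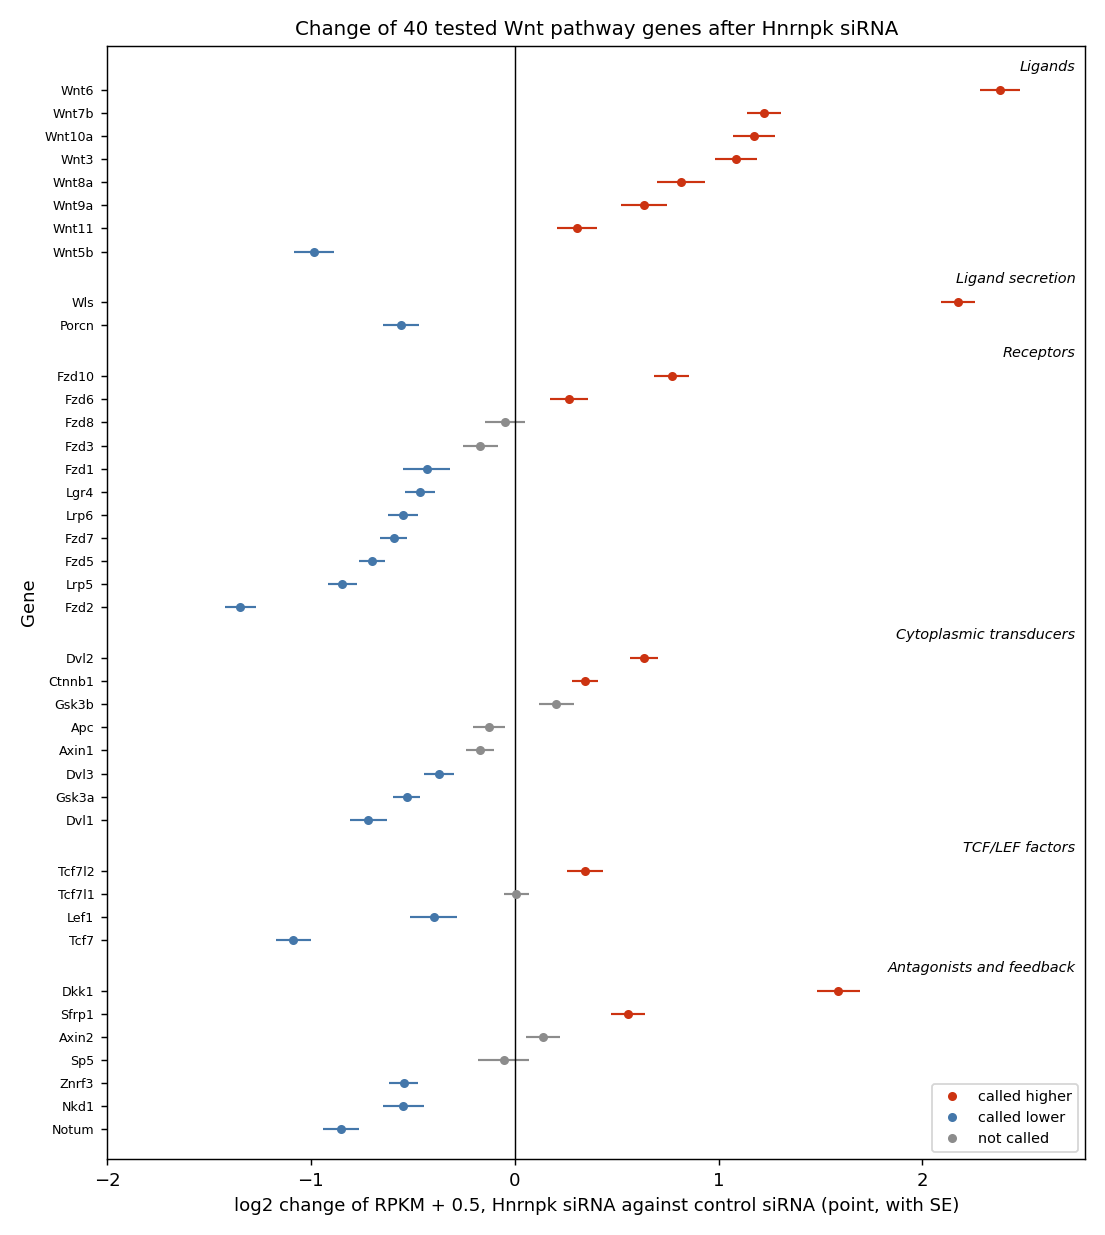
Change of the 40 tested members on the log2(RPKM + 0.5) scale, Hnrnpk siRNA against control siRNA, as points with SE from limma (n = 2 libraries per group), by class. Values run from -1.35 (Fzd2) to 2.38 (Wnt6), and each class except the secretion pair and the ligands holds called and uncalled genes.

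The change of every tested member is plotted by class. Other pathway genes were listed by their place in the pathway. Of the 87 found, 64 were tested, with 16 called higher and 32 lower (all genes: 32.2% and 35.0%, the shares against which the counts by class that follow are also read), and a median log2 change of -0.16. The number called higher was 8 without Hnrnpk siRNA replicate 1 and 10 without replicate 2. Among 12 tested antagonists outside the members, 3 rose and 7 fell. Nkd2, the relative of Nkd1, stood at 3.82 and 3.14 RPKM with control siRNA and 1.05 and 0.968 RPKM with Hnrnpk siRNA, and fell by 1.39 ± 0.105 on the log2 scale (± SE; limma adjusted p = 3.56e-06). Sfrp4, another soluble Frizzled-like inhibitor (1.29 and 1.27 against 0.236 and 0.224 RPKM), fell by 1.29 log2 units, while Sfrp1 rose. Dkkl1, a relative of the Dkk genes known from trophoblast and testis, rose by 1.98 log2 units (2.12 and 1.61 against 8.61 and 8.96 RPKM; the highest limma adjusted p of these 3 was 3.56e-06).

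Of 9 tested receptors outside the members 5 fell and 1 rose. Fzd9 fell by 0.99 log2 units (3.73 and 3.55 against 1.4 and 1.79 RPKM), and the Dkk1 receptors Kremen2 and Kremen1 by 0.79 log2 units (1.5 and 1.32 against 0.527 and 0.688 RPKM) and 0.55 log2 units (6.49 and 5.81 against 3.97 and 4.14 RPKM). Rspo1, the only other ligand or agonist of 12 that was tested, fell by 0.98 log2 units (3.05 and 2.51 against 1.19 and 1.12 RPKM). Nuclear partners rose in 4 and fell in 8 of 14 tested cases. The beta-catenin co-factors Bcl9 and Bcl9l crossed over, Bcl9 falling by 1.02 log2 units (11.5 and 10.4 against 5.36 and 4.95 RPKM) and Bcl9l rising by 1.02 log2 units (4.58 and 4.35 against 9.78 and 9.37 RPKM), and Tbl1x fell by 0.41 log2 units (22.9 and 25.2 against 18.6 and 17.4 RPKM). The limma adjusted p of these 7 genes was at most 0.00076.

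Among cytoplasmic regulators 4 of 17 tested rose and 5 fell, both below the shares over all genes. Csnk1a1, the kinase that primes beta-catenin for Gsk3, rose by 0.53 log2 units (38.8 and 38.9 against 57.4 and 55.4 RPKM). Fam123b, now called Amer1, fell by 0.84 log2 units (3.57 and 3.1 against 1.64 and 1.63 RPKM), and Ccdc88c by 0.62 log2 units (12.8 and 13.6 against 8.68 and 8.17 RPKM). Of the planar polarity branch, which shapes tissues without beta-catenin, 4 of 11 tested rose and 6 fell. Its cadherins Celsr3 and Celsr2 fell by 1.02 log2 units (1.87 and 1.91 against 0.698 and 0.66 RPKM) and 0.75 log2 units (4.69 and 4.6 against 2.61 and 2.52 RPKM), and Vangl2 by 0.55 log2 units (13.8 and 13.2 against 9.09 and 9.04 RPKM). The limma adjusted p of these 6 genes was at most 8.83e-05.

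Of 6 naive pluripotency genes known to be bound by Tcf7l1, 4 rose, 0 fell and 2 were not called, with a median log2 change of 0.54. Over all genes tested 32.2% were called higher and 35.0% lower, and a part of Tcf7l1 in these changes was not tested. Tbx3 rose by 1.97 log2 units (16.4 and 14.8 against 64 and 61.1 RPKM), Tcfcp2l1, now Tfcp2l1, by 1.44 log2 units (40.9 and 32.9 against 106 and 94.2 RPKM), Nanog by 0.82 log2 units (204 and 190.2 against 353 and 342 RPKM) and Klf2 by 0.26 log2 units (202 and 199 against 230.1 and 251 RPKM; limma adjusted p of the 4 at most 0.00762). Esrrb (149.6 and 125 against 155 and 149 RPKM) and Nr5a2 (38.9 and 40 against 36.7 and 35.8 RPKM) were not called.

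Markers of other cell types moved in the same libraries, and their counts too are read against the 32.2% of all genes called higher and 35.0% called lower. The defining stem cell gene Pou5f1 stood at 287 and 301 RPKM with control siRNA and 245 and 286 RPKM with Hnrnpk siRNA. It was not called (-0.15; limma adjusted p = 0.137). Of 8 stem cell markers 2 rose (Nanog and Dppa5a) and 4 fell (Sox2, Tdgf1, Lin28a and Utf1). Of 15 primitive endoderm markers 8 of 10 tested rose and 1 fell, and their summed level was 180.3 and 182 RPKM in the control and 315 and 329 RPKM in the Hnrnpk siRNA libraries. Sparc alone made up most of these sums, at 143 and 146 RPKM with control siRNA and 235 and 246 RPKM with Hnrnpk siRNA. Of 11 trophectoderm markers 9 were found by name (not Tfap2c and Plet1). All 7 tested rose, with sums over the 9 of 41.7 and 46 and of 91.5 and 95.3 RPKM. Of 9 primitive streak and mesoderm markers, which share Eomes with the trophectoderm list, 4 of 6 tested rose and 1 fell, with sums of 7.67 and 7.70 and of 16.6 and 16.3 RPKM. The rise of this sum lay in Cdx1 (2.22 and 2.61 against 7.41 and 7.67 RPKM) and Eomes, whose values are given below. T and Gsc were also called higher, and Mixl1 was the marker called lower (log2 change -0.73, limma adjusted p = 0.000188). Tbx6 was not called. Among the untested streak markers, both Hnrnpk siRNA libraries lay below both control libraries for Mesp1 and above them for Evx1, and Kdr overlapped. Among defining genes of these lists, Gata6 (primitive endoderm) rose by 3.66 ± 0.0928 on the log2 scale (± SE; limma adjusted p = 2.04e-08), from 0.721 and 0.565 to 13.7 and 14.1 RPKM. Gata3 (trophectoderm) stood at 0.581 and 0.568 against 5.32 and 5.28 RPKM and Eomes at 1.54 and 1.09 against 5.32 and 4.99 RPKM, in the order control and Hnrnpk siRNA, and both rose (limma adjusted p at most 2.84e-06). Others were low in both groups: Sox17 (primitive endoderm) was at 0.157 and 0.144 against 0.821 and 0.805 RPKM, Cdx2 (trophectoderm) at 0.166 and 0.303 against 0.731 and 0.749 RPKM, Elf5 (trophectoderm) at 0.105 and 0.109 against 0.0608 and 0.0705 RPKM and T (primitive streak) at 0.361 and 0.846 against 1.07 and 1.03 RPKM. Of these genes only T was tested, and it was called higher (log2 change 0.52, limma adjusted p = 0.0233). Ttr and Afp did not exceed 0.0193 RPKM in any library.

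Of 7 neural markers 5 were found by name (not Sox1 and Map2). All 3 tested fell, with sums over the 5 of 103 and 116 and of 84.6 and 94.8 RPKM. Tubb3 alone made up most of these sums, at 99 and 111 RPKM with control siRNA and 82.2 and 92.6 RPKM with Hnrnpk siRNA. Of 9 fibroblast markers 1 of 3 tested rose and 2 fell, with sums of 10.9 and 9.18 and of 6.15 and 6.19 RPKM. Thy1 (6.90 and 5.20 against 2.22 and 2.28 RPKM) and Col1a1 (2.46 and 2.68 against 1.73 and 1.86 RPKM) fell, by 1.24 and 0.42 log2 units. Twist1 rose by 0.60 log2 units (1.17 and 0.842 against 1.86 and 1.68 RPKM). Of the untested markers, Col1a2, Col3a1, Postn, Lum and Dcn stayed at or below 0.0923 RPKM. The part of any of these markers in the changes of the Wnt genes was not tested, and in bulk RNA a change in the number of cells of a type and a change in RNA per cell cannot be told apart.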

How the data were processed

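Poly(A) or rRNA-depleted RNA (the labels give both) was sequenced from 4 libraries. The authors deposited RPKM values per gene in 1 table; the submitters' processing notes name BWA, SAMtools and mm9, and the counting tool, annotation and strand setting are not stated there. Here log2(RPKM + 0.5) was fitted on group with limma 3.58.1 (R 4.3.3, mean-variance trend) over genes whose mean reached 0.5 RPKM, and p-values were Benjamini-Hochberg adjusted over all 12486 genes. The script was tested on simulated data. With 2 against 2 libraries an exact two-sided permutation test cannot go below p = 0.333. The members and lists were chosen with earlier results of these data known. Full values were given for called members changed by at least 0.5 (log2), the most abundant of each class, and Ctnnb1, Gsk3b, Tcf7l1, Axin2 and Lef1, and of other pathway genes for up to 3 per class with the lowest p. Gene positions, exon overlaps and GC content came from GENCODE M21 (GRCm38), which held 92.8% of the table's genes, and start-site windows from RefSeq (GRCm38.p6). Relative depth was read from the steps between low RPKM values. The 13 alternatives changed the added value, filter, scaling, variance model, GC trend, replicate block or libraries used.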

Additional observations from a re-analysis of the deposited data

How the results depend on the processing

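Of the 40 tested members 22 were tested and kept their direction and their side of the threshold under all 13 alternatives. A further 7 (Wnt3, Wnt5b, Wnt8a, Wnt9a, Wnt10a, Wnt11 and Dkk1) did so where tested: all 7 fall below the filter at 1 RPKM, and Wnt11 and Dkk1 also below that at 0.5 RPKM without either Hnrnpk siRNA replicate. Members called higher numbered 15, but 9 of 31 tested with a mean of at least 1 RPKM, which removes 9 members from the test, and 11 to 17 with 1 library left out; those called lower numbered 17, and 15 to 18. Other pathway genes called higher fell from 16 to 8 without Hnrnpk siRNA replicate 1 and 10 without replicate 2 (8 to 14 over all libraries left out). All reversals were in members not called: Tcf7l1 (-0.053 under quantile normalization, and -0.0095 to 0.027 with 1 library left out), Fzd8 (-0.10 to 0.0083) and Sp5 (0.056 under quantile normalization, 0.20 with GC trends removed, -0.24 to 0.13 with 1 library left out). The cause was not tested. Same-numbered libraries did not deviate together (r = 0.027 across genes). That value shows no shared shift by number, but cannot tell whether the libraries were prepared as pairs. With the replicate block 16 members were called higher and 18 lower. Dkk1 rests on the fewest reads. Leaving out 1 library leaves a group with 1, assumed to vary like the other group.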
